A study of Mus musculus with 12 samples.

Results

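The 10 genes described here encode receptors for extracellular adenosine and nucleotides, and the surface enzymes that turn nucleotides into adenosine. They are the ectoenzymes Entpd1 and Nt5e, the adenosine receptors Adora2a, Adora2b and Adora3, the nucleotide receptors P2ry6, P2ry12 and P2ry14, and the ATP-gated channels P2rx4 and P2rx7. They were chosen by gene symbol, with earlier results of these data known. All 10 were among the 40847 rows of the count table, and all 10 were among the 14749 genes that passed the filter on low counts. The cells were mouse fetal liver alveolar-like macrophages (FLAMs), grown from fetal liver with GM-CSF (30 ng/ml), a growth factor that alveolar macrophages need. There were 4 groups of 3 libraries, namely untreated cells, cells kept with recombinant human TGFβ1 (20 ng/ml), cells given the TLR2 ligand Pam3CSK4 (Pam3, 25 ng/ml) for 18 h, and cells given both. GM-CSF was present in every group, and the labels call the cells a cell line. Genotype, animal age, the length of culture in TGFβ and whether replicates came from separate cultures are not stated in the labels, so the p-values measure only the spread between these libraries, which may be technical.

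Cells release ATP when stressed or injured, and extracellular ATP acts as a danger signal on P2 receptors. CD39, the product of Entpd1, removes phosphates from ATP and ADP to give AMP, and CD73, the product of Nt5e, cleaves AMP to adenosine. Adenosine acts on P1 receptors. Those encoded by Adora2a and Adora2b raise cyclic AMP through Gs and are known to restrain inflammatory cytokine release by macrophages, while that encoded by Adora3 couples to Gi.

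Library totals ran from 34036650 to 44374115 counts. The pan-macrophage markers were present in every group, led by Lyz2 (14731 to 32247 CPM over the 12 libraries). Their sum was 31365 to 35563 CPM in untreated, 17040 to 17996 in TGFβ, 34135 to 35289 in Pam3 and 26131 to 26784 in Pam3+TGFβ libraries, a sum that was mostly Lyz2 and was lower with TGFβ, as were 6 of the 10 genes without Pam3. Among the other markers, untreated and TGFβ means were 303 and 145 CPM for Adgre1, 983 and 820 CPM for Csf1r, 858 and 549 CPM for Cd68, and 737 and 510 CPM for Ptprc, all lower with TGFβ. They were 223 and 222 CPM for Mertk, and 81.1 and 91.3 CPM for Fcgr1, so most markers but not every one followed the sum. Their part in those results was not tested. CPM here is the count scaled to the TMM-adjusted library size. Of the alveolar macrophage markers, Fabp4 stood at 31.1 CPM in untreated cells and 0.132 CPM with TGFβ, and Krt79 at 0.147 CPM in untreated cells and 52.5 CPM with TGFβ. Summed markers of other cells were low and differed between groups. The 7 neutrophil markers summed to 13.5 to 15.7 CPM in untreated and 3.75 to 5.51 CPM in TGFβ libraries, the 4 dendritic cell markers to 4.48 to 5.62 and 1.23 to 1.94 CPM, and the 6 epithelial and stromal markers to 1.05 to 1.94 and 4.81 to 5.42 CPM. The neutrophil sum was mostly S100a8 (means of 13.8 CPM untreated and 3.07 CPM with TGFβ), while S100a9 (0.253 and 0.993 CPM) and Ngp (0.346 and 0.623 CPM) differed in the other direction. Mpo, Sftpc, Cd3e, Fcer1a, Tpsb2, Epx and Il5ra had no count in any library. Of the mast cell and basophil markers, Cpa3 had means of 0.599, 0.0334, 0.406 and 0.0452 CPM in untreated, TGFβ, Pam3 and Pam3+TGFβ cells. The eosinophil marker Prg2 reached 0.133 CPM and the lymphocyte marker Cd79a 0.288 CPM.

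Of the 10 genes, TGFβ without Pam3 raised 2 and lowered 6, where 22.9% of all tested genes were called higher and 28.1% lower (51% in either direction). With Pam3 present, TGFβ raised 3 and lowered 5, against 21.5% and 23.8% of all tested genes (45.3% in either direction). Pam3 without TGFβ raised 3 and lowered 3 (9.62% and 8.66% of all tested genes, 18.3% together). Leaving out a library gave only 4 to 5 calls of these 10 genes. Over all genes such fits gave 1965 to 2729 calls, against 2697 in the main fit. Pam3 in the presence of TGFβ raised 4 and lowered 3 (20.4% and 18.1%, 38.5% together). The Pam3 response was larger or more positive with TGFβ for 4 genes and smaller for 0 by the edgeR interaction test, where 10.3% of all tested genes were called in the first direction and 5.67% in the second (15.9% together). DESeq2 and limma also gave 4 and 0. The interaction of a further gene, P2rx7, had an unadjusted p of 0.0498 and was not called. Genes were called at an adjusted p under 0.05, with the Benjamini-Hochberg method applied to all of them. Because the 10 genes were chosen with earlier results known, the shares of all tested genes are a reference and not a test. The median log2 fold change of the 10 genes was -0.55 for TGFβ without Pam3, -0.24 for TGFβ with Pam3, 0.09 for Pam3 without TGFβ and 0.13 for Pam3 with TGFβ. The medians over all tested genes were -0.01, 0.00, 0.00 and -0.02. The plot of CPM by library shows all 10 genes.

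**Figure D1:**
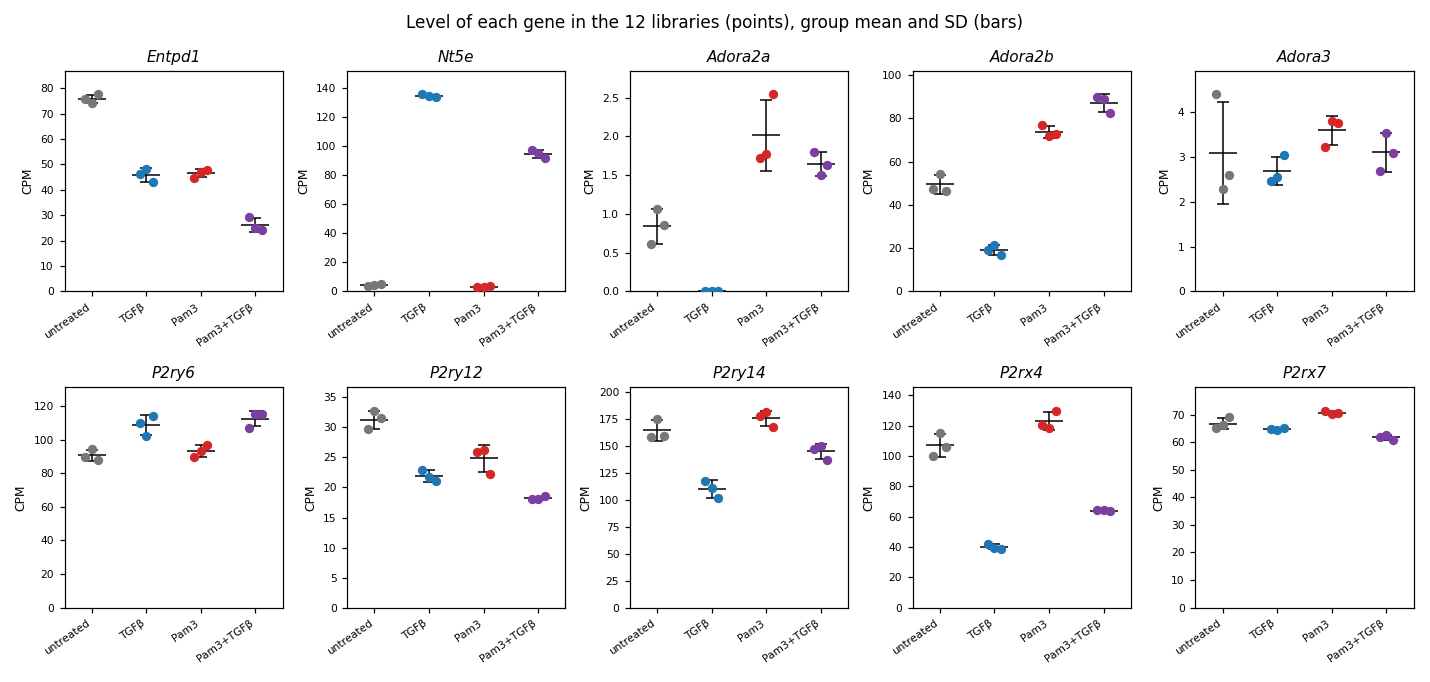
CPM (linear axis from 0) of the 10 genes in each of the 12 libraries, by group; points are libraries, the horizontal bar is the group mean and the error bar the SD (n = 3). Nt5e is high in the 6 libraries with TGFβ, Adora2a is at 0 in the 3 TGFβ libraries, and Entpd1 is lowest in the 3 Pam3+TGFβ libraries.

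Nt5e (chr9:88209089-88254146, plus strand of GRCm39, protein-coding, 9 exons in its longest transcript) had the largest response to TGFβ among the members with counts in every group. In untreated cells it stood at 3.37, 4.21 and 4.85 CPM, and with TGFβ at 135, 134 and 134 CPM. With Pam3 it stood at 2.91, 2.87 and 3.94 CPM, and with Pam3+TGFβ at 96.9, 94.9 and 91.3 CPM. Libraries with TGFβ were thus far above those without it, with no overlap. The edgeR log2 fold change for TGFβ was 5.02 without Pam3 (SE 0.10, adjusted p 2.23e-21), a 32.5-fold difference, and 4.88 with Pam3 (SE 0.10, adjusted p 7.37e-21), a 29.3-fold difference. By size, the first ranked 181 among the 14749 tested genes. Stromal cells also carry CD73. The epithelial and stromal markers, which were higher with TGFβ too, summed to at most 5.78 CPM in any library, and Sftpc had no count. Epcam had means of 0.0453, 1.60, 0.10 and 1.95 CPM in untreated, TGFβ, Pam3 and Pam3+TGFβ cells, and Pecam1 0.895, 2.46, 1.03 and 2.77 CPM. Their part in the Nt5e result was not tested. In bulk RNA, fewer cells of a type and less RNA per cell cannot be told apart.

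In the presence of TGFβ, Pam3 lowered Nt5e, with a log2 change of -0.51 (SE 0.08, adjusted p 1.17e-05) and the Pam3+TGFβ libraries all below the TGFβ libraries. Without TGFβ the fitted change was -0.36 (SE 0.12, adjusted p 0.0373), the libraries of the groups overlapped, and the call was lost in 13 of 21 alternative settings, 10 of them among the 12 fits that left out a library. Without untreated replicate 3 the change was -0.25 (adjusted p 0.195), and over all settings the adjusted p ran from 0.00331 to 0.255. The difference between these responses was -0.15 on the log2 scale (95% interval -0.44 to 0.15, adjusted p 0.589).

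Sequence near the start of Nt5e is shown because, of the genes with a window in the RefSeq table used, it had the largest TGFβ response. The table held windows for 8 of the 10 genes (13 windows, table build GRCm38.p6, matched base for base to GRCm39). In the 250 bases before the RefSeq start of Nt5e, CAGAC, a core of SMAD-binding elements, occurred 2 times, both times on the opposite strand as GTCTG. This window is exonic throughout in GENCODE M39, so only the matches with 10 bases on each side are given, at chr9:88209583-88209607 and chr9:88209620-88209644, with the match in capitals.
Nt5e site 1: cggggagtgtGTCTGcaagcgggag
Nt5e site 2: gaagaggcggGTCTGtccccgcccc
CAGAC was present in 42.2% of all 32851 RefSeq promoter windows of the same length, on either strand, and in 9 of the 13 windows of these genes. The NF-kB letters (GGG, any 2 bases, TTTCC) and the interferon response letters (GAAA, any 2 bases, GAAA) occurred in 0 of the 13 windows, against 1.41% and 2.98% of all windows.

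Entpd1 (chr19:40600810-40731585, plus strand), the enzyme upstream of CD73, moved the other way with TGFβ. Untreated libraries held 75.6, 74.2 and 77.6 CPM, TGFβ libraries 46.4, 48.3 and 42.9 CPM, Pam3 libraries 44.7, 47.0 and 48.0 CPM and Pam3+TGFβ libraries 29.3, 25.0 and 24.0 CPM. Each agent lowered it and the lowest levels were in the libraries with both. The TGFβ effect was -0.72 without Pam3 (SE 0.07, adjusted p 1.73e-09) and -0.84 with Pam3 (SE 0.07, adjusted p 2.42e-10). The Pam3 effect was -0.70 without TGFβ (SE 0.07, adjusted p 2.48e-08) and -0.82 with TGFβ (SE 0.07, adjusted p 5.45e-10). The difference between the Pam3 responses was -0.11 (95% interval -0.32 to 0.09, adjusted p 0.522).

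Per length, the balance of the enzymes therefore differed between groups. Levels per length are RPKM, the CPM divided by the summed exon length in kilobases from GENCODE M39. Entpd1 stood at 10.6 RPKM and Nt5e at 0.473 RPKM in untreated cells, a ratio of 22.5. With TGFβ the order was opposite, with 6.44 RPKM for Entpd1 and 15.3 RPKM for Nt5e, a ratio of Nt5e to Entpd1 of 2.38. That ratio was 0.0565 with Pam3 and 2.94 with Pam3+TGFβ. With the length of the longest annotated transcript instead, the Nt5e to Entpd1 ratios were 0.0757, 4.06, 0.0964 and 5.02 in the order untreated, TGFβ, Pam3 and both. These ratios compare transcript levels and say nothing of enzyme activity.

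Adora2a (chr10:75152560-75170628, plus strand), a Gs-coupled receptor with high affinity for adenosine, had the lowest CPM of the members in every group and had no count in any TGFβ library. Without any agent its counts were 23, 44 and 30, with TGFβ alone 0, 0 and 0, with Pam3 alone 66, 67 and 80, and with the combination 62, 56 and 72. The TGFβ libraries were thus separate from all others, while the Pam3 and Pam3+TGFβ libraries overlapped. A count of 0 allows up to 3 counts, and against that floor in each TGFβ library Adora2a was at least 10.7-fold lower with TGFβ than in untreated cells (adjusted p 1.77e-08) and, with TGFβ present, Pam3 made it at least 20.9-fold higher (adjusted p 1.24e-09). Without TGFβ it rose with Pam3 from 0.840 ± 0.227 CPM to 2.01 ± 0.459 CPM (SD, n = 3), an edgeR log2 change of 1.25 (SE 0.35) with an adjusted p of 0.0123.

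The Pam3 response of Adora2a differed with TGFβ by the edgeR interaction test (adjusted p 2.64e-06), being at least 20.9-fold with TGFβ against an estimated 2.40-fold without. In the presence of Pam3, the TGFβ effect was -0.29 (95% interval -0.98 to 0.40, adjusted p 0.513), and the groups overlapped. The rise without TGFβ was no longer called without untreated replicate 1 (1.07, adjusted p 0.0683), without Pam3 replicate 3 (1.05, adjusted p 0.0764) or with limma and a pseudocount of 0.5 (1.26, adjusted p 0.0542). The floor covers counting error only.

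Adora2b (chr11:62139804-62157279, plus strand, 2 exons), the Gs-coupled receptor with low affinity for adenosine, was the most abundant adenosine receptor per length in every group. Untreated libraries held 47.5, 54.3 and 46.3 CPM, TGFβ libraries 19.2, 21.3 and 16.7 CPM, Pam3 libraries 76.8, 71.6 and 72.7 CPM and Pam3+TGFβ libraries 89.9, 88.8 and 82.5 CPM. No groups overlapped, and TGFβ went with the lowest levels without Pam3 and the highest with it. TGFβ lowered Adora2b without Pam3 (log2 -1.37, SE 0.08, adjusted p 1.28e-13) and raised it with Pam3 (log2 0.24, SE 0.07, adjusted p 0.0091). Pam3 raised it 1.49-fold without TGFβ (log2 0.58, SE 0.07, adjusted p 2.25e-06) and 4.56-fold with TGFβ (log2 2.19, SE 0.08, adjusted p 2.74e-17). The interaction was 1.61 (SE 0.11, adjusted p 3.49e-11) and was called in each of 20 alternative fits, with adjusted p up to 1.33e-09.

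Adora3 (chr3:105778174-105816242, plus strand), the Gi-coupled receptor, did not pass the test in any comparison. It stood at 4.39, 2.29 and 2.59 CPM in untreated cells and between 2.46 and 3.80 CPM in the other 9 libraries, and the groups of each comparison overlapped. Its TGFβ effect was -0.20 without Pam3 (95% interval -0.66 to 0.25) and -0.21 with Pam3 (-0.66 to 0.24). Without untreated replicate 1, the first of these values was 0.16. Changes within these intervals could not be told from the spread between libraries. The gene lies within Tmigd3 on the same strand, with which it shares 4.13% of its exonic bases, and shares 18% with Gm53046, so its counts are uncertain.

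Of the summed RPKM of the 3 adenosine receptors, Adora2b made up 96.4% in the untreated group, 93.5% in the TGFβ group, 96.7% in the Pam3 group and 97.6% in the Pam3+TGFβ group. The sum itself was 27.7, 11.03, 41.2 and 48.2 RPKM in these groups. In TGFβ cells, Nt5e was therefore high while the summed adenosine receptors were at their lowest of the 4 groups, and in Pam3+TGFβ cells both Nt5e and Adora2b were high.

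The promoter of Adora2b is shown because the gene had the smallest interaction p of the 10. The printed part, chr11:62139560-62139803 on the plus strand, is the stretch of the RefSeq window before the first annotated exon (244 bases), and capitals mark its single CAGAC match, read as GTCTG.
Adora2b: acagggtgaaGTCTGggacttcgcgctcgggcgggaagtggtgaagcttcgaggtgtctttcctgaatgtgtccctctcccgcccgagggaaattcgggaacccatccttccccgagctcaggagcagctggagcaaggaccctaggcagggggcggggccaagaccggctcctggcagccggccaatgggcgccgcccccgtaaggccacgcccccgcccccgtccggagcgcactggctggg
No match to TGACG (the half-site of the cAMP response element) or to the AP-1 letters TGANTCA was in this window. Of all RefSeq windows, 17.8% held TGACG and 6.75% held TGANTCA.

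**Figure D2:**
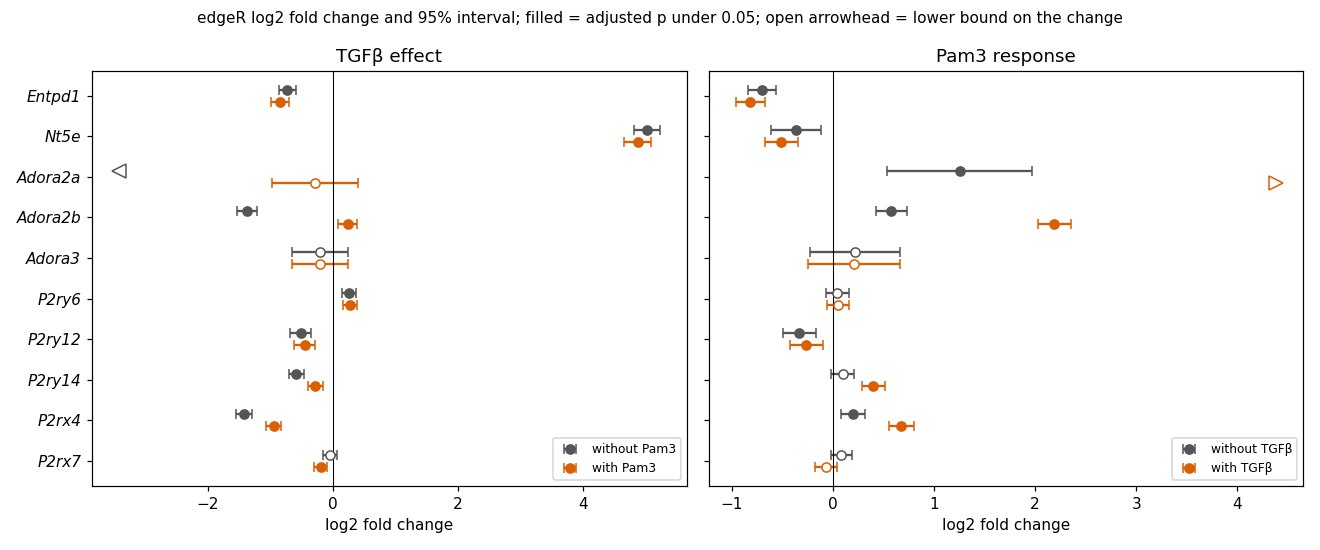
Log2 fold changes (edgeR, x axis) of the 10 genes for TGFβ (left) and Pam3 (right), each without and with the other agent, with 95% intervals; filled points had an adjusted p under 0.05, and open arrowheads are lower bounds for Adora2a, which had 0 counts with TGFβ. Nt5e lies near 5 in both TGFβ contrasts, and Adora2b is at -1.37 without and 0.24 with Pam3.

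P2rx4 (chr5:122845541-122867803, plus strand) encodes an ATP-gated cation channel found largely on lysosomes of macrophages. Untreated libraries held 99.7, 115 and 106 CPM, TGFβ libraries 42.0, 39.4 and 38.7 CPM, Pam3 libraries 121, 119 and 129.9 CPM and Pam3+TGFβ libraries 64.2, 64.4 and 63.5 CPM. The 6 libraries with TGFβ were all below the 6 without it. The TGFβ effect was -1.42 without Pam3 (SE 0.06, adjusted p 2.02e-16) and -0.94 with Pam3 (SE 0.06, adjusted p 6.29e-13). Pam3 raised it by 0.68 with TGFβ (SE 0.06, adjusted p 7.65e-10) and by 0.20 without (SE 0.06, adjusted p 0.0142). The latter was not called without untreated replicate 1 (0.16, adjusted p 0.0956) or without Pam3 replicate 3 (0.16, adjusted p 0.0935). The interaction was 0.48 (SE 0.08, adjusted p 0.00014). Pam3 thus raised P2rx4 more with TGFβ, although the level with both stayed below that of untreated cells.

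P2rx7 (chr5:122781942-122830400, plus strand) lies 15140 bases from P2rx4 and encodes the ATP-gated channel whose opening lets potassium leave the cell and is known to trigger the NLRP3 inflammasome. Untreated libraries held 65.1, 66.0 and 69.0 CPM, TGFβ libraries 64.7, 64.4 and 65.3 CPM, Pam3 libraries 71.4, 70.2 and 70.5 CPM and Pam3+TGFβ libraries 61.9, 62.7 and 60.7 CPM. The whole range over 12 libraries was narrow beside that of P2rx4. The TGFβ effect was -0.04 without Pam3 (95% interval -0.15 to 0.06, adjusted p 0.522) and -0.19 with Pam3 (SE 0.05, adjusted p 0.00327). The Pam3 value was 0.08 without TGFβ (adjusted p 0.317) and -0.07 with TGFβ (adjusted p 0.325), neither called, although the latter was called with upper-quartile scaling (-0.13, adjusted p 0.0486). The libraries compared for Pam3 did not overlap in either case, although the differences were small.

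The P2rx4 window is shown because its TGFβ effect was the largest among the 5 nucleotide receptors and channels of the members. The part before the first annotated exon is chr5:122845357-122845540 on the plus strand (184 bases). Capitals mark a CAGAC match (as GTCTG) and a TGACG match (as CGTCA). A further TGACG match lies in the exonic part of the window.
P2rx4: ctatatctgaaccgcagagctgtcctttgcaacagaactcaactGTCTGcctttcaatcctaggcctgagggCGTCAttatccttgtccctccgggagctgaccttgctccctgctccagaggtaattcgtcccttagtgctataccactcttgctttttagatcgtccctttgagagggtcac
TGACG was found in 3 of the 13 windows of these genes and TGANTCA in 4, among them a P2rx7 window. A match of letters is a description and shows no binding.

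P2ry12 and P2ry14 lie 62547 bases apart on the minus strand, both inside Med12l, which is on the opposite strand and had at most 182 counts in a library. P2ry12 (chr3:59123682-59170429) encodes the Gi-coupled ADP receptor known from platelets and microglia. Untreated libraries held 29.7, 32.7 and 31.5 CPM, TGFβ libraries 22.9, 21.8 and 21.0 CPM, Pam3 libraries 25.9, 26.3 and 22.3 CPM and Pam3+TGFβ libraries 18.0, 18.2 and 18.5 CPM. Both agents lowered it, and the libraries with both were lowest. The TGFβ effects were -0.51 (SE 0.08, adjusted p 5e-06) without and -0.45 (SE 0.08, adjusted p 4.87e-05) with Pam3. The Pam3 effects were -0.33 (SE 0.08, adjusted p 0.00329) without and -0.26 (SE 0.08, adjusted p 0.0106) with TGFβ, and their difference was 0.07 (95% interval -0.16 to 0.30, adjusted p 0.768). The 5 megakaryocyte and platelet markers summed to 8.31 to 10.2 CPM in untreated, 3.14 to 4.79 in TGFβ, 14.5 to 15.3 in Pam3 and 2.60 to 3.11 in Pam3+TGFβ libraries, a sum led without TGFβ by Ppbp (means of 6.03, 0.0494, 9.09 and 0.123 CPM in the same order) and with TGFβ by Gp1ba (1.73, 3.52, 1.46 and 1.94 CPM). Their part in the P2ry12 result was not tested.

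P2ry14 (chr3:59021276-59061134) encodes the receptor for UDP-glucose and had the highest CPM of the members in the groups other than TGFβ alone, where Nt5e was higher. Untreated libraries held 159, 176 and 159 CPM, TGFβ libraries 118, 111 and 102 CPM, Pam3 libraries 179, 181 and 168 CPM and Pam3+TGFβ libraries 148, 151 and 138 CPM. The TGFβ effect was -0.58 without Pam3 (SE 0.06, adjusted p 2.81e-09) and -0.28 with Pam3 (SE 0.06, adjusted p 0.000217). Pam3 raised it by 0.40 with TGFβ (SE 0.06, adjusted p 2.31e-06), whereas without TGFβ the value was 0.10 (SE 0.06, adjusted p 0.275) and the groups overlapped. The interaction was 0.30 (SE 0.08, adjusted p 0.00822), with adjusted p from 0.000289 to 0.0498 over the alternatives, the highest without TGFβ replicate 3.

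P2ry6 (chr7:100585308-100624173, minus strand), the UDP receptor known to promote phagocytosis and chemokine release, was the member besides Nt5e that TGFβ raised without Pam3. Untreated libraries held 89.5, 94.6 and 87.9 CPM, TGFβ libraries 109.9, 102 and 114 CPM, Pam3 libraries 89.8, 93.5 and 97.1 CPM and Pam3+TGFβ libraries 107, 116 and 115 CPM. The rise was small and without overlap. The TGFβ effect was 0.26 without Pam3 (SE 0.05, adjusted p 0.000241) and 0.27 with Pam3 (SE 0.05, adjusted p 0.000201). Pam3 gave 0.04 without TGFβ (95% interval -0.07 to 0.16) and 0.05 with TGFβ (-0.06 to 0.16), neither called (adjusted p 0.671 and 0.506).

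**Figure D3:**
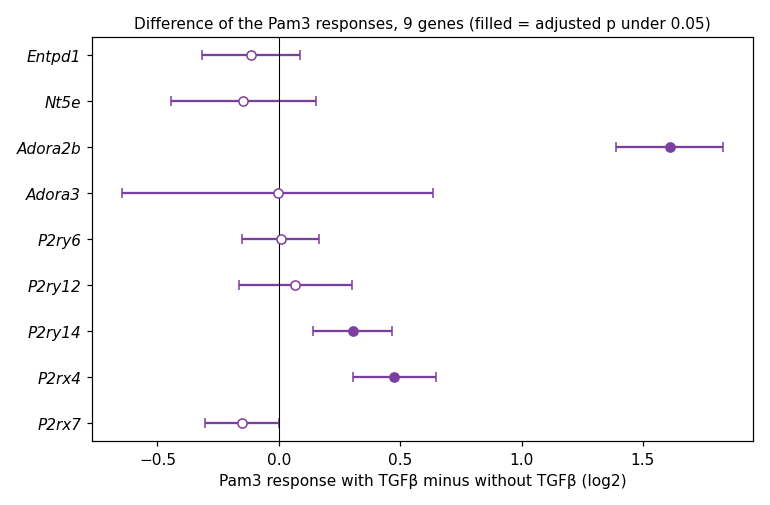
Difference between the Pam3 response with TGFβ and that without it (log2, x axis) for 9 genes, with 95% intervals; filled points had an adjusted p under 0.05. Adora2b (1.61), P2rx4 (0.48) and P2ry14 (0.30) lie above 0, 5 intervals span 0 and that of P2rx7, which was not called, ends just under it; Adora2a is left out because its fitted value rests on libraries with 0 counts.

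The members were also ordered by RPKM within each group. In untreated cells Adora2b came first (26.7 ± 2.33 RPKM, SD, n = 3), followed by P2ry14 (14.7), P2ry6 (13.9) and P2rx4 (13.7), whose ranges overlapped from each to the next. Entpd1, P2ry12 and P2rx7 followed at 10.6, 9.76 and 6.84 RPKM, and Adora3, Nt5e and Adora2a were each under 1 RPKM. With TGFβ, P2ry6 (16.7 ± 0.913 RPKM) and Nt5e (15.3 ± 0.1 RPKM) came first, and the ranges of Adora2b and P2ry14, and those of P2ry12, P2rx7 and Entpd1, overlapped. With Pam3, Adora2b was first again (39.8 ± 1.48 RPKM), P2rx4 and P2ry14 overlapped, as did P2ry12 and P2rx7, and Adora2a and Nt5e. With both agents, Adora2b (47.0 ± 2.14 RPKM) was 2.72 times the level of P2ry6, and no neighbours overlapped. The order depends on the gene length used. With the longest transcript, P2rx4 (27.5 RPKM) was first in untreated cells and Nt5e (32.3 RPKM) was above P2ry6 (26.2 RPKM) in TGFβ cells. The longest annotated P2rx4 transcript has 1 exon and 3895 bases, against 9 exons and 7791 exonic bases for the whole gene. Its first place by that length is therefore uncertain. The longest P2ry14 transcript also has 1 exon.

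Counts of calls in the lists of other purinergic genes are to be read against the shares of all tested genes, 51% and 45.3% for TGFβ without and with Pam3, and 18.3% and 38.5% for Pam3 without and with TGFβ. Other enzymes that act on nucleotides were listed as a group, of which 8 of 13 passed the filter. Of those 8, 4 are relatives of CD39 (Entpd4, Entpd5, Entpd6 and Entpd7) that reside mainly inside the cell or are secreted. TGFβ without Pam3 raised 3 and lowered 4 of the 8, and with Pam3 raised 2 and lowered 3. The genes raised include Entpd2 in both cases, which passed the filter only through libraries with TGFβ. Its means were 0.153, 0.497, 0.167 and 0.711 CPM in untreated, TGFβ, Pam3 and Pam3+TGFβ cells. Pam3 raised 2 without TGFβ, and raised 2 and lowered 2 with it. Acpp (current symbol Acp3), whose membrane form also makes adenosine from AMP, moved against Nt5e. Untreated cells held 109 ± 3.82 CPM, TGFβ cells 19.9 ± 1.37 CPM, Pam3 cells 191 ± 10.8 CPM and Pam3+TGFβ cells 29.3 ± 1.18 CPM (SD, n = 3). The TGFβ effect was -2.45 without Pam3 (SE 0.06, adjusted p 9e-21) and -2.70 with Pam3 (SE 0.06, adjusted p 1.7e-21), and Pam3 raised it by 0.81 (SE 0.06, adjusted p 1.01e-10) and 0.56 (SE 0.06, adjusted p 6.28e-08). Per length, Acpp stood at 14.8 RPKM in untreated cells, above Nt5e, and at 2.71 RPKM with TGFβ, below it.

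Cd38, an enzyme that consumes NAD, stood at 90.8 ± 3.04, 24.6 ± 0.601, 203 ± 8.25 and 84.0 ± 3.66 CPM (SD, n = 3) in untreated, TGFβ, Pam3 and Pam3+TGFβ cells. The TGFβ effects were -1.89 and -1.28 without and with Pam3 (adjusted p 1.16e-19 and 1.46e-16), and Pam3 raised it by 1.16 and 1.77 without and with TGFβ (adjusted p 4.51e-14 and 9.09e-19). Entpd6, a relative of CD39 found in the Golgi and secreted, had an interaction of -0.27 (adjusted p 0.124), called in 1 of 20 alternatives.

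**Figure D4:**
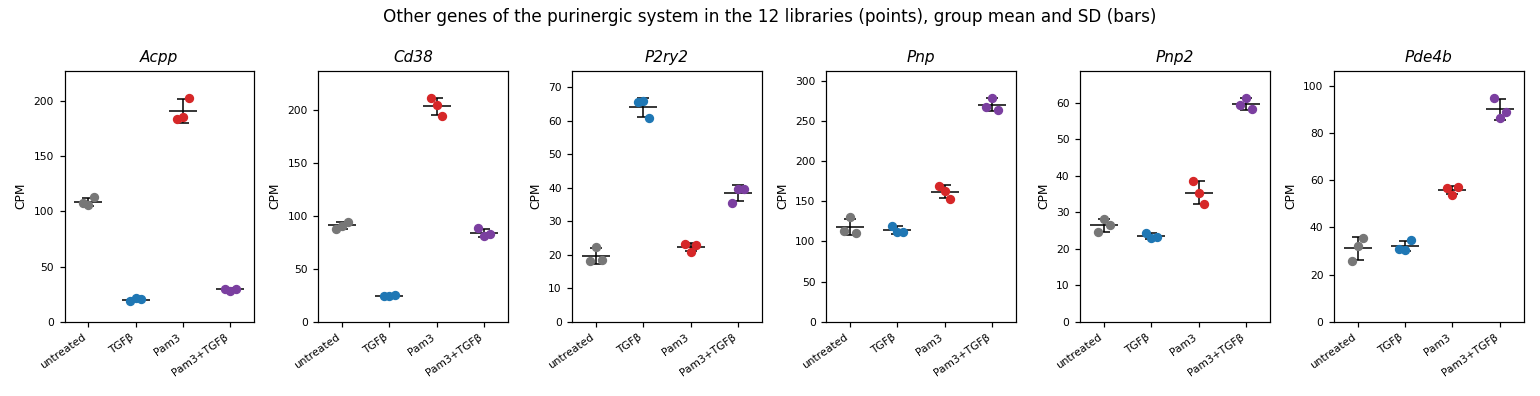
CPM (linear axis from 0) in each of the 12 libraries for Acpp, Cd38, P2ry2, Pnp, Pnp2 and Pde4b; points are libraries, the horizontal bar the group mean and the error bar the SD (n = 3). Acpp and Cd38 are lower with TGFβ at each Pam3 condition, P2ry2 is highest with TGFβ alone, and Pnp, Pnp2 and Pde4b are highest with both agents.

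Of 12 other purinergic receptors, 7 passed the filter. TGFβ raised 2 and lowered 3 without Pam3, and raised 3 and lowered 3 with it, while Pam3 raised 1 and lowered 1 with TGFβ. The genes lowered by TGFβ include P2rx1 in both cases. It passed the filter only through the untreated group (mean 0.653 CPM, against 0.181 CPM with Pam3). Without TGFβ, the smallest adjusted p for Pam3 in this list was 0.0864 (P2rx1). P2ry2, a receptor for ATP and UTP, stood at 19.7 ± 2.35, 64.1 ± 2.82, 22.3 ± 1.25 and 38.3 ± 2.41 CPM (SD, n = 3) in untreated, TGFβ, Pam3 and Pam3+TGFβ cells. TGFβ raised it by 1.70 without Pam3 (SE 0.08, adjusted p 1.71e-15) and by 0.78 with Pam3 (SE 0.08, adjusted p 6.82e-09). With TGFβ present, the Pam3 effect was -0.74 (SE 0.08, adjusted p 1.4e-08), and the value without TGFβ was 0.18 (adjusted p 0.143). P2ry13, which lies between P2ry12 and P2ry14 and also binds ADP, ranged from 98.1 to 117 CPM over the 12 libraries, with an interaction of 0.12 (adjusted p 0.268). P2ry10b had an interaction of 0.27 (adjusted p 0.0736), which was called in 4 of 20 alternatives (lowest adjusted p 0.0219).

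Genes of adenosine uptake and clearance had 9 of 12 past the filter. TGFβ lowered 4 without Pam3, the Pnp2 call being lost in 18 of 21 alternatives, and raised 2 and lowered 5 with Pam3. Pam3 raised 2 and lowered 1 without TGFβ, and raised 2 and lowered 2 with it. Pnp, the phosphorylase that breaks down inosine and guanosine, stood at 118 ± 10.4, 114 ± 4.76, 162 ± 7.99 and 270.3 ± 7.84 CPM (SD, n = 3) in untreated, TGFβ, Pam3 and Pam3+TGFβ cells, and its near-identical neighbour Pnp2, with which reads may be shared, at 26.5 ± 1.75, 23.4 ± 0.761, 35.4 ± 3.24 and 59.7 ± 1.64 CPM. Pam3 raised Pnp by 0.46 without and 1.24 with TGFβ (adjusted p 9.26e-07 and 1.57e-15). Slc28a2, a nucleoside transporter, was at 0 counts in the TGFβ libraries, at least 6.79-fold lower than in untreated cells against the same floor (adjusted p 8.92e-05), and its interaction was not called (adjusted p 0.214). Slc28a2 passed the filter only through the groups without TGFβ, where its means were low, at 0.534 CPM untreated and 0.405 CPM with Pam3.

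In the cAMP signalling list, 16 of 17 genes passed the filter. TGFβ raised 6 and lowered 7 without Pam3, and raised 5 and lowered 4 with it, while Pam3 raised 2 and lowered 1 without TGFβ, a share near that of all genes, and raised 3 and lowered 5 with it. Pde4b, a phosphodiesterase that degrades cyclic AMP, stood at 31.1 ± 4.95, 32.0 ± 2.24, 55.9 ± 1.78 and 90.2 ± 4.44 CPM (SD, n = 3) in untreated, TGFβ, Pam3 and Pam3+TGFβ cells. Pam3 raised it by 0.85 without TGFβ (SE 0.09, adjusted p 1.36e-07) and by 1.49 with TGFβ (SE 0.09, adjusted p 1.91e-12). Adcy7, an adenylyl cyclase, stood at 515 ± 35.9, 602 ± 31.7, 481 ± 17.9 and 454 ± 19.8 CPM, and the phosphodiesterase gene Pde3b at 70.7 ± 2.36, 113 ± 5.97, 71.0 ± 0.932 and 90.4 ± 6.14 CPM. Pam3 lowered both with TGFβ (Adcy7 -0.41, adjusted p 1.6e-06, and Pde3b -0.32, adjusted p 4.91e-05). Of 6 nucleotide release genes, 4 passed the filter. TGFβ raised 1 and lowered 1 without Pam3, and raised 1 and lowered 2 with it, while Pam3 raised 1 without TGFβ and lowered 1 with it. The call raised by Pam3, and 1 of the 2 lowered by TGFβ with Pam3, was Panx3, which was under 1 CPM in every library and passed the filter only through the Pam3 group. The call raised by TGFβ without Pam3 was Panx1 (0.25, adjusted p 0.0384), lost without untreated replicate 3 (adjusted p 0.191) and without TGFβ replicate 1 (adjusted p 0.158). Lrrc8a, Panx1 and Slc17a9 had interactions of -0.24, 0.18 and -0.18 (adjusted p 0.179, 0.475 and 0.48), and that of Lrrc8a was called in 1 of 20 alternatives. For TGFβ without Pam3, the list medians were -0.34 for receptors, -0.16 for enzymes, -0.15 for uptake and clearance, -0.26 for release and 0.08 for cAMP signalling. The median of all tested genes was -0.01. The release median rests on 4 genes, among them Panx3 (-2.66, SE 1.94, adjusted p 0.269). The middle gene of the receptor list was not called (SE 0.58, adjusted p 0.659). Some listed genes passed the filter only through 1 group, so nothing is concluded from these medians.

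The genes most like the 4 members with a called interaction were found by Pearson correlation of log2 CPM over the 12 libraries, which share the 4 conditions. For Adora2b they were Gm20559 (r = 0.995), Mvp (0.994) and Cxcl3 (0.993), the last a neutrophil chemokine. For Adora2a they were Epsti1 (r = 0.994), Ptpre (0.994) and St3gal1 (0.993). For P2rx4 they were Slc2a6, Adgre4 and Aoah (r = 0.996 each), and for P2ry14 Immt (0.989) and Fcer1g (0.988). Cxcl3 stood at 19.2, 0.70, 91.8 and 188 CPM in untreated, TGFβ, Pam3 and Pam3+TGFβ cells, an order shared with Adora2b.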

How the data were processed

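Stranded mRNA libraries were sequenced from 12 samples of cells. Per the submitters' processing notes, which give no roles, the authors used Bowtie2 2.4.1, featureCounts of Subread 2.0.0 and DESeq2 1.36.0 with GRCm39. The deposited table holds whole-number counts per gene, and annotation, strand setting and treatment of multi-mapping reads are not given in the sources used here. The deposited normalized values are a signal, the count divided by a constant per library, and served only for alternatives. For the results, counts entered edgeR 4.0.16 (R 4.3.3), using filterByExpr with minimum count 10, TMM scaling, 4 group means without a block, and the quasi-likelihood test for 5 contrasts, adjusted by Benjamini-Hochberg over 14749 genes. The SE is the absolute log2 fold change over the square root of F. Depth was 34036650 to 44374115 counts. No replicate pair was a duplicate library (lowest chi-square per df 9.99). The interaction test was run on simulated data with known changes. RPKM, positions and overlaps use GENCODE M39 (GRCm39). Alternatives were DESeq2 1.42.0, limma 3.58.1 (pseudocounts 1 and 0.5), other scalings and filters, a replicate block, only the groups compared, leaving out each library, and other lengths. The members, lists and tests were chosen with earlier results of these data known. By rule, all 10 members and, from each list, the 3 genes with the smallest interaction p are named. Entpd2, P2rx1, Panx3, Gnai3 and Creb1 were named after their values were seen. Some items that these rules or the marker lists would name are not reported here.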

Additional observations from a re-analysis of the deposited data

Results flagged for a closer look

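By the edgeR interaction test, the response to Pam3 depended on TGFβ for 4 of the 10 genes. The log2 differences, with TGFβ minus without, were 7.71 for Adora2a (adjusted p 2.64e-06, a fitted value that rests on 0 counts with TGFβ), 1.61 for Adora2b (adjusted p 3.49e-11), 0.48 for P2rx4 (adjusted p 0.00014) and 0.30 for P2ry14 (adjusted p 0.00822). Of the 44 other purinergic genes tested, 5 had a positive and 5 a negative called difference. Of all tested genes, 10.3% were called positive and 5.67% negative (15.9% together). Fits that left out a library gave 7 to 10 such calls of the 44, and the replicate block 11. Of the 10 calls in the main fit, 8 are named by the rule of smallest p in each list. The others were Gnai3 (0.20, adjusted p 0.0203) and Creb1 (-0.28, adjusted p 0.038), which were not followed singly through the alternatives. The difference was positive for Pnp2 (0.93, adjusted p 1.79e-07), Pnp (0.79, adjusted p 3.35e-08), Pde4b (0.65, adjusted p 0.000432) and Cd38 (0.61, adjusted p 9.26e-07). It was negative for P2ry2 (-0.92, adjusted p 8.11e-07), Pde3b (-0.33, adjusted p 0.00486), Adcy7 (-0.31, adjusted p 0.00699) and Acpp (-0.25, adjusted p 0.0428), whose call was lost in 10 of 20 alternatives.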

How the results depend on the processing

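Of 1035 values of the 10 genes under alternatives, 1016 stayed on their side of the threshold, 18 lost a call, 1 gained one and 0 called values reversed. The 18 were Pam3 responses without TGFβ, of Nt5e (13), Adora2a (3) and P2rx4 (2), and the gain was P2rx7 for Pam3 with TGFβ. Leaving out a library gave 4 to 5 called members for Pam3 without TGFβ, against 6 in the main fit. Every such fit gave 7 for Pam3 with TGFβ, 8 for each TGFβ effect and 4 for the interaction. With the length of the longest transcript, 6 members changed rank in untreated, 8 in TGFβ, 4 in Pam3 and 2 in Pam3+TGFβ cells. Deviations from the group means correlated at over 0.1 in 7 of 18 same-numbered pairs (median 0.0614) and 8 of 36 others (median -0.0578). The 6 pairs among replicate 3 libraries ran from 0.0332 to 0.300. These values do not settle whether the numbers pair the samples. The labels do not say that they do, and the main fit used no block. With a replicate block, 6, 7, 8, 8 and 4 members were called for Pam3 without and with TGFβ, TGFβ without and with Pam3, and the interaction, the same counts as without it, and the block changed no call of a member. Over all genes the block gave 2751, 5714, 7562, 6736 and 2393 calls. Requiring 10 counts in each library left Adora2a untested. No scaling moved the median of all genes by over 0.1 on the log2 scale. Counts were low for Adora2a (up to 80), for Adora3 and for Nt5e without TGFβ, which limits their precision.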
